A study of Mus musculus with 2 samples.

Results

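The members described here are array probes for noncoding loci that lie close to an annotated gene. The array carries 16181 probes named only by a genomic interval and a strand, in 4607 intervals. A probe was a member where its position lay within 20 kb of the nearest probe of a RefSeq messenger RNA on the same chromosome, on either strand. This gave 5994 members in 1727 loci, of 55681 gene and locus probes on the array, while 10069 locus probes lay farther away and 118 had no position. The rule used positions only and no signal. Distances run between probes, and gene probes often lie near the 3′ end of their transcript. Whether a member lies in an exon, an intron, a UTR or between genes was therefore not determined here, and an annotation of this genome build was not used.

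The study asked whether the zinc finger transcription factor GATA1 is needed for mast cells to form in adult mice. Total RNA came from bone marrow-derived mast cells of C57BL/6 mice, grown for 2 weeks in interleukin 3 at 10 ng/mL and then for 2 weeks with stem cell factor at 10 ng/mL added. Cells of 1 group received 200 pmol of a control siRNA and cells of the other received 200 pmol of a GATA1 siRNA. Each group is 1 array, on which material of 2 animals was pooled, so both groups share strain, culture and transfection and no difference has a replicate check. An siRNA lowers a messenger RNA in part, in whatever cells took it up, which limits it as a model of GATA1 loss. The Gata1 probe itself read 16415 with control siRNA and 3930 with GATA1 siRNA, a log2 difference of -2.23.

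Mammalian genomes are transcribed well beyond their coding genes. Long noncoding RNAs are made from intergenic stretches, from the strand opposite a gene, or from its promoter in the reverse direction, and RNA polymerase II also runs on past the ends of genes. Unannotated 3′ ends of a neighbouring gene can look like a separate noncoding locus on an array, which is why strand and distance were examined first.

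Signals are background-subtracted scanner intensities. Levels are log2 of the signal over the 75th percentile of its array, averaged over both arrays, and differences are GATA1 siRNA minus control siRNA on that scale. A probe is called measured where it was well above background on both arrays. Of all 55659 probes left after outlier spots were removed, 28736 (51.6%) were measured and no spot was saturated. All 10 mast cell markers were measured, with summed signals of 935855 and 943592, and their median difference was -0.15. Sums are not scaled between arrays and rest on the brightest markers. Tpsab1 read 623 and 162 (-2.11), Mcpt4 differed by -0.88 and Tpsb2 by -0.53, and the other mast cell markers by -0.24 to 0.04. Markers of other cells were also present. The 8 neutrophil markers summed to 24827 with control siRNA and 41514 with GATA1 siRNA, and the 7 macrophage markers to 10548 and 20072, with all members of both lists measured. The 6 eosinophil markers, all measured, summed to 7658 and 6113. Of 6 erythroid markers 4 were measured, with sums of 3284 and 5682 over the list, and of 5 lymphocyte markers 3, with sums of 3594 and 3755. Median differences over the whole lists were 0.60 for neutrophil, 0.52 for macrophage, -0.53 for eosinophil, 0.35 for erythroid and -0.14 for lymphocyte markers. Among measured markers, Epor of the erythroid list differed by -1.58 and Siglecf of the eosinophil list by 0.60, against the direction of their lists. In pooled RNA, fewer cells of a type and less RNA per cell cannot be told apart, and the part of these cells in the differences below was not tested.

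The sequences given next are those of the array's own 60-base probes, read 5′ to 3′ on the strand each detects (positions in mm9). The first pair detects opposite strands of 1 stretch upstream of Mcl1, which encodes an anti-apoptotic BCL2 family protein. Capitals mark the 50 bases that are each other's reverse complement.
Mcl1 side, plus strand: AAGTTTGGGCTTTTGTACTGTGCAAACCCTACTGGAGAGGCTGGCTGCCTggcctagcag
Mcl1 side, minus strand: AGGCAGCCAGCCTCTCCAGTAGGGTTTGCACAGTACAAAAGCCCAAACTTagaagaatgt
The second pair is a member beside Cep135, a centrosome gene, and the array's probe for the transcript A730089K16Rik, with the 19 bases they share in capitals.
Cep135 side member: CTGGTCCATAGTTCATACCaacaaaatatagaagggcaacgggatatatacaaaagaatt
A730089K16Rik probe: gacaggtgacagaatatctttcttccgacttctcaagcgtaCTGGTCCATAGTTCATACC
The next probes are the lowest pair and the highest 1 in difference among brighter members outside marked spots, and the last line gives the first 30 bases of the brightest member beside Dgki. Capitals would mark AATAAA or ATTAAA, the signals that precede messenger RNA cleavage, and these stretches hold neither on the strand shown.
Gata1 and Glod5 side: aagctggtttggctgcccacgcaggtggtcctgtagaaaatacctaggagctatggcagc
Tnni1 side: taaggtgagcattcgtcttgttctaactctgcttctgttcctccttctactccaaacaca
B3gnt7 side: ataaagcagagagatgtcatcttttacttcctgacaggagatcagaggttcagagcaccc
Dgki side, first 30 bases: tgtatattctcccagcagtgccaatgggca

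Members were measured less often than genes and were dimmer. Outlier spots removed 3 members. Of the 5991 left, 2399 (40.04%; exact 95% interval 38.8 to 41.3, which covers counting only) were measured, against 16829 of 26526 named gene probes (63.4%) and 3475 of 10065 locus probes far from genes (34.5%). Another 313 members (5.22%) were well above background on the GATA1 siRNA array only and 94 (1.57%) on the control siRNA array only, against 3.54% and 1.08% of all probes, and 3185 on neither. The median level of measured members was -2.22, that of named gene probes 0.83 and that of far loci -2.24. In scanner units the median member read 67.4 with control siRNA and 71.2 with GATA1 siRNA. Only 411 measured members (17.1%) exceeded the 75th percentile of the array, against 60.1% of measured named gene probes. Counted by locus, 1127 of 1727 loci (65.3%) had at least 1 measured member.

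Close to a gene probe, members on the strand of the gene were measured more often than members on the other strand. On the gene's own strand 46.2% of 3013 members were measured, and on the opposite strand 33.8% of 2978. Of 208 same-strand members under 1 kb from the gene probe without overlapping it, 66.8% (interval 59.98 to 73.2) were measured. That share was 51.8% at 1 to 5 kb, 45.4% at 5 to 10 kb and 39.6% at 10 to 20 kb. On the opposite strand the order ran the other way, with 24.7% (interval 19.7 to 30.3) of 271 members under 1 kb, 27.6% at 1 to 5 kb, 37.9% at 5 to 10 kb and 37.7% at 10 to 20 kb. The intervals of both strands overlap only in the farthest class and among overlapping probes. They treat probes as independent, although probes of 1 locus share their transcript.

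**Figure D1:**
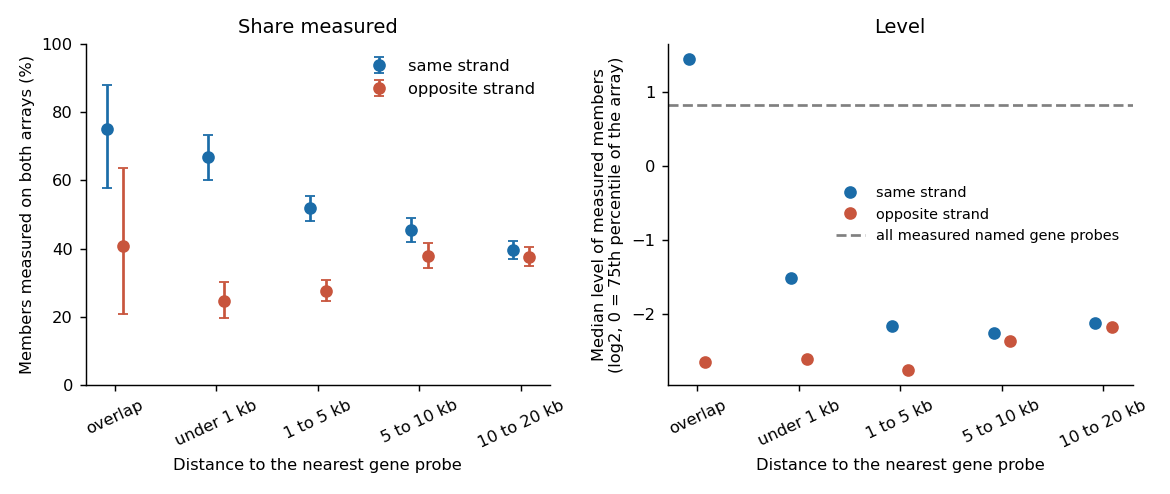
Share of members measured on both arrays (left, percent with exact 95% binomial intervals) and median level of the measured members (right, log2 with 0 at the array's 75th percentile), by distance to the nearest gene probe and by strand. Same-strand members go from 66.8% measured under 1 kb to 39.6% at 10 to 20 kb, while opposite-strand members go from 24.7% to 37.7%; the dashed line is the median of measured named gene probes, 0.83.

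The side of the gene probe mattered less than the strand under 1 kb. Same-strand members were measured in 74.6% of 71 cases upstream and in 62.8% of 137 cases downstream. At 5 to 10 kb the upstream share was 35.0% of 183 and the downstream share 48.7% of 583. Levels followed the same pattern: the median of measured same-strand members was -1.52 under 1 kb and -2.16 at 1 to 5 kb, and that of opposite-strand members -2.61 and -2.76.

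Members that overlap the span of a gene probe set both strands side by side. Some gene probes span far more than their 60 bases, up to 33112 at Phf14, so overlap is not always 1 position. In same-strand pairs where both were measured, the longest shared run was 6 to 60 bases, with a median of 40. On the same strand 27 of 36 members were measured, and the gene probe in 26 of the 36 cases. In 25 cases both were measured. In 2 the member alone was, at 140 and 152 beside Shisa8 (8 shared bases) and 149 and 152 beside 2410124H12Rik (28 shared bases). No ratio is given between probes, whose signals also depend on their own sequence. The member beside Cdc42, which encodes a small GTPase of the actin cytoskeleton (chr4:136875838-136875897, minus strand), read 42659 with control siRNA and 50404 with GATA1 siRNA. The Cdc42 probe, with which it shares 35 bases, read 33284 and 41380. On the opposite strand 9 of 22 overlapping members were measured, and the gene probe in 16 of the 22 cases. The member opposite Micos10, a gene of the mitochondrial inner membrane, read 113.8 and 106.96 where the gene probe read 29372 and 33810. In 8 cases both were measured, and in 1, opposite 4930562C15Rik, the member alone was. It read 127 and 162 where the gene probe was not well above background.

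Where a locus span carries probes of both strands, both were measured more often than 1 alone. Of 398 such spans, 203 (51.0%) were measured on both strands, 154 (38.7%) on 1 strand only and 41 on neither. No share for unrelated strands was set beside these counts, so they are not read as a result about strand. The differences of both strands did not run together, with a Pearson r of -0.03 and a Spearman rho of 0.05 across the 203 spans. All spans share the same 2 arrays, so this is a description.

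Base composition also went with detection. The share of members measured was 24.8% of 145 probes with at most 30% G and C, 33.1% of 1873 between 30% and 40%, 39.1% of 2940 between 40% and 50%, 54.7% of 934 between 50% and 60%, and 82.8% of 99 above that. Named gene probes spanned a narrower range, from 56.3% to 80.8% over the same classes. The letters AATAAA or ATTAAA, searched on the detected strand only because the signal acts in RNA, stood in 6.53% of the 5991 member probes, 6.18% of far-locus probes and 17.3% of named gene probes. Among the 36 same-strand members that overlap a gene probe the share was 22.2%, and among 721 same-strand members under 5 kb downstream 6.52%.

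Members were on balance slightly lower on the GATA1 siRNA array. Their median difference was -0.07 (SD 0.33 across 2399 probes), and 1485 of them (61.9%) were below 0, where the median was 0.01 for all measured probes and -0.10 for far loci. Named gene probes weighted to the members' levels, in 20 bins of level with at least 185 probes each, had a median of -0.0005 and an SD of 0.37. The gap to genes was present in each of 4 ranges of level that hold nearly equal numbers of members. From dim to bright, the member medians were -0.14, -0.10, -0.07 and -0.02, and the named gene medians in the same ranges -0.10, -0.01, 0.02 and 0.05. Probes printed repeatedly on the array had a median SD of the difference of 0.18 at the members' usual level (40 probes), so a single member near the median cannot be told from 0. With the authors' table as scaling the member median was -0.01 and that of level-matched genes 0.06, and with normexp, another background correction with an offset of 50, they were -0.09 and -0.05. Members stayed below 0 and below those genes under each scaling and background correction tried, with a gap that was smaller with normexp.

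**Figure D2:**
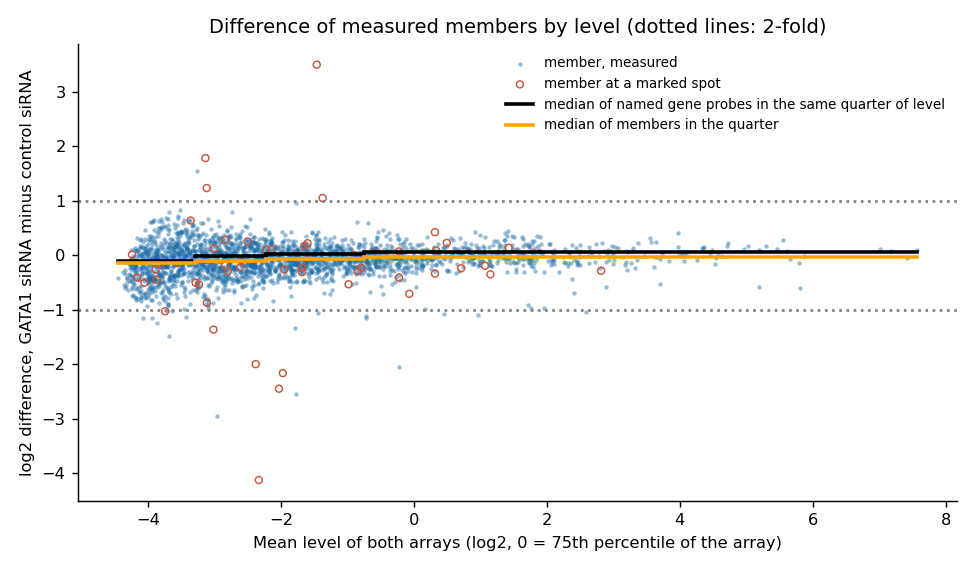
log2 difference (GATA1 siRNA minus control siRNA) of the 2399 measured members against their mean level over both arrays, with open circles for members at marked spots. Horizontal bars are the medians of members and of named gene probes in each of 4 ranges of level, and dotted lines mark 2-fold; most members lie within 2-fold, and 5 lie above and 23 below.

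Few members passed 2-fold. There were 5 higher and 23 lower of 2399, 0.208% and 0.959%, beside 0.338% and 0.612% of all 28736 measured probes and 0.950% in either direction. Level-matched named gene probes passed in 0.69% and 1.10%. The members' shares therefore lie near the background. At 1.5-fold 29 members were higher and 136 lower, together 6.88%, against 1.92%, 3.19% and 5.11% of all measured probes and 8.83% of the level-matched gene probes. Some areas of the array held clusters of spots that differed strongly, and spots there are called marked. Marked spots made up 4 of the 5 higher and 6 of the 23 lower members, against 2.25% of measured members. Marked ones included, 11 of the lower members were below the 25th percentile of all measured probes in level. Free of both limits were 9 lower members, in 6 loci, and none of the higher ones. The extremes of the whole set were marked: the member upstream of Emx2, a homeobox gene (chr19:59526148-59526207), read 251 and 16.2, and the one upstream of Fis1, a mitochondrial fission gene (chr5:137411786-137411845), read 32.8 and 414. Their nearest gene probes differed by 0.37 and -0.07.

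The stretch downstream of Dgki was the largest coherent group of lower members. Dgki encodes diacylglycerol kinase iota, an enzyme that turns diacylglycerol into phosphatidic acid. All 7 minus-strand members at 6.56 to 7.69 kb from the Dgki probe, on the gene's strand, were lower, in 2 named loci that together cover chr6:36789211-36790397. The brightest (chr6:36790218-36790277) read 2621 with control siRNA and 1434 with GATA1 siRNA, a difference of -1.04. The others of its locus read 1646 and 941, then 600.5 and 319, which gave a locus mean of -1.03 (SD 0.05 over 3 probes). The second locus read 1434 and 827, 861 and 453, 478 and 269.5, and 273 and 139, with a mean of -1.05 (SD 0.09 over 4 probes). The control signals span 273 to 2621 along the stretch while the differences stay between -0.96 and -1.14. The Dgki probes read 948 and 550 (-0.95) and 244 and 145 (-0.92). On the plus strand of the same stretch, the single measured member read 19.5 and 20.9, a difference of -0.07. Another read 21.7 and 13.4 and was above background with control siRNA only. Both loci passed 2-fold as a mean, but not with the authors' table (-0.99 and -0.97) or with normexp (-0.90 and -0.94).

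Beside Crebrf, which encodes a regulator of the CREB3 stress transcription factor, members were higher in small, even steps. All 10 probes of the plus-strand locus chr17:26911397-26917047, at 3.66 to 4.22 kb downstream of the Crebrf probe, were above 0. Their control signals ran from 222 to 1011 and the mean difference was 0.36 (SD 0.06), with a range of 0.27 to 0.44. A second plus-strand locus in between held 3 members, at 764 and 1080 (0.33), 746 and 1074 (0.36) and 22.4 and 28 (0.16). The Crebrf probe read 124 and 167 (0.27), and that of the next gene on, Bnip1, 393 and 456 (0.05). Most minus-strand members here were not well above background, and the 1 that was read 20.1 and 26.2. The steps do not reach 1.5-fold. The 10 probes share 1 locus and the same 2 arrays, and some overlap, so their spread does not measure the precision of the difference.

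Among loci with 3 or more measured probes of 1 sign, the highest means lay at Ifi207, of the interferon-inducible HIN-200 family. The members given here lie on that gene's strand, at 1 of its probes or between its probes. A locus at chr1:175653557-175671940 read 43.6 and 77.3, 23.5 and 41.1, and 24.5 and 36, a mean of 0.56 (SD 0.15). Its neighbour at chr1:175654606-175672031 read 18.6 and 60.7, 32.8 and 53.7, and 29.6 and 35.2, a mean of 0.72 (SD 0.74). The first of these, at 1.54, is the only higher member past 2-fold outside marked spots. A brighter probe of another locus (chr1:175662473-175662532) read 179 and 272 (0.43). The Ifi207 probe at this end read 32.6 and 73.6 (1.01), and Ifi204 of the same family 63.2 and 104 (0.55). That Ifi207 probe has the position of the member at 43.6 and 77.3 and shares 42 bases with it, so these are not separate readings. All of these members and gene probes run on the minus strand. The first pair of loci lies below the 25th percentile of measured probes in mean level, at -3.09 and -3.17. A second Ifi207 probe, at 13.0 and 15.3, was not well above background. Farther off on the plus strand, measured Pydc3 probes went the other way, at 81.8 and 59.2 (-0.63) and 1186 and 1140 (-0.22).

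**Figure D3:**
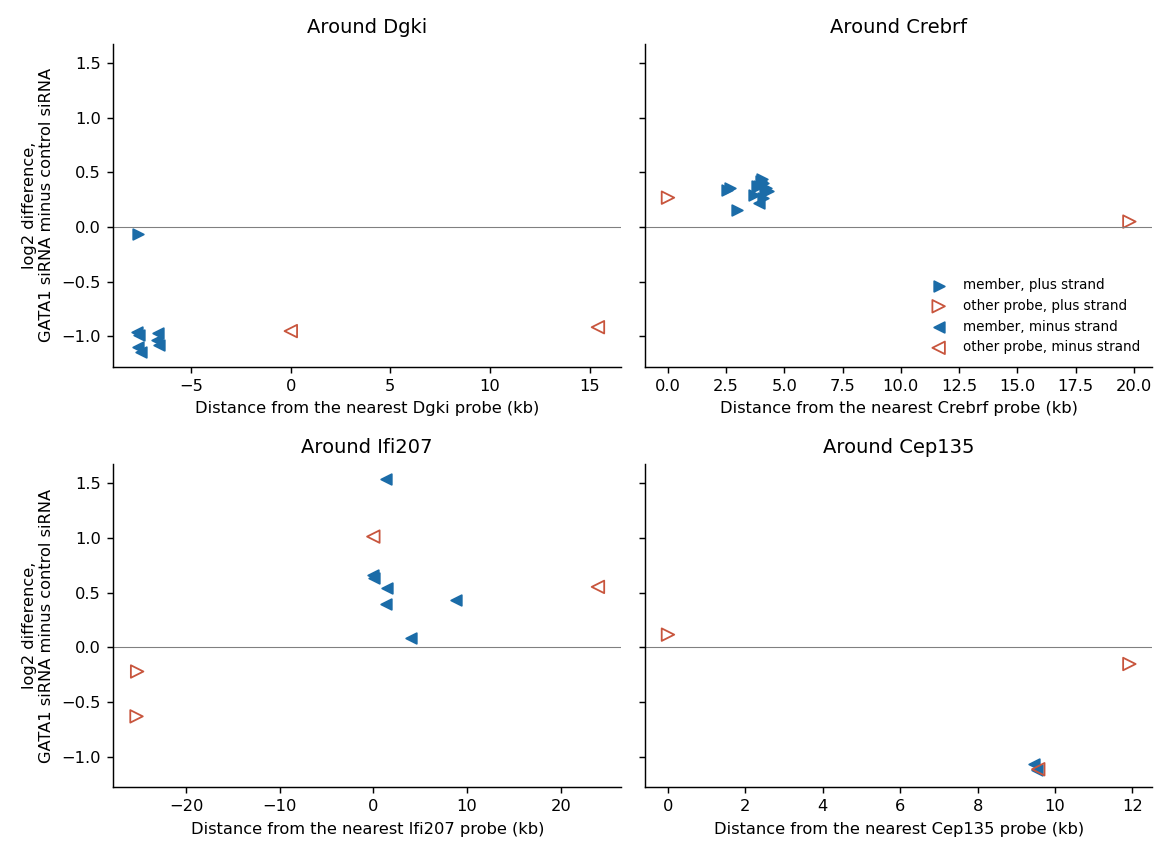
log2 difference of every measured probe against its distance in kb from the nearest probe of Dgki, Crebrf, Ifi207 or Cep135 along the chromosome; filled triangles are members, open triangles other probes, and triangles point right for the plus strand and left for the minus strand. Beside Dgki 7 minus-strand members lie near -1 with both Dgki probes, and beside Cep135 the 2 members lie with an open triangle, A730089K16Rik, and not with Cep135.

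The lowest single members outside marked spots stood alone or nearly so. The largest fall among them, marked and dimmer members aside, was at chr1:137692658-137692717, minus strand, 12.6 kb from the probe of Tnni1, the slow skeletal muscle troponin I. It read 214 with control siRNA and 41.4 with GATA1 siRNA, a difference of -2.54, and -1.49 with normexp. The other probes of its locus, 1 of them 240 bases away, were not above background on either array, nor was Tnni1. The second was at chrX:7567941-7568000, plus strand, at 529 and 143, a difference of -2.06. Its nearest gene probe is that of Glod5, a glyoxalase-domain gene, which was not above background on the control siRNA array. The Gata1 probe starts 31549 bases away on the minus strand. This is the only probe of its locus among the members, so no second probe bears on it.

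The plus-strand member upstream of Mcl1 whose sequence is given above (chr3:95458807-95458866) read 140 and 62.3, a difference of -1.33. The next probe on, which starts 61 bases further, read 163 and 41 (-2.16) but sits at a marked spot. The other measured probe of the locus read 53.7 and 56.4 (-0.09). The minus-strand probe that shares its 50 bases read 23.1 and 34.4 (0.41), so the strands went apart. The 2 Mcl1 probes differed by 0.17 and 0.30. With normexp the member read -0.79 and no longer passed 2-fold.

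The members beside Cep135 went with another transcript. They read 271 and 140 (-1.12; chr5:77084913-77084972) and 161 and 86.3 (-1.07; chr5:77084839-77084898), both on the minus strand. The A730089K16Rik probe, on that strand and with 19 bases in common, read 366 and 189 (-1.12). Cep135 lies on the other strand, at 147 and 178 (0.12). With normexp both members were under 2-fold, at -0.87 and -0.74. In all, 24 members overlapped, on the same strand, a probe without a RefSeq messenger RNA accession. Some of these probes are for Ensembl transcripts of the nearest gene itself, such as Pura and Zfp652, and some carry only a probe identifier. The members' differences lay a median of 0.08 from that probe. Pearson's r across these 24 pairs was 0.87 (Spearman's rho 0.54), and 0.66 without A730089K16Rik. Both probes share 5 to 60 bases, so some pairs are nearly the same probe and their closeness was built in. In the member near Prrg4 (chr2:104658551-104658610) the pair was 135 and 231 (0.61) against 67.2 and 101 (0.42) for 2310047K21Rik, while the Prrg4 probe, on the other strand, read 227 and 224. A member near Foxe3, a forkhead factor of the lens, carries the same 60 bases as the 9130206I24Rik probe, and they read 480 and 629 against 483 and 612.

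Other brighter members that were higher lay beside varied genes. Beside B3gnt7, a glycosyltransferase gene, members at chr1:88187583-88187642 and chr1:88187466-88187525 read 63.9 and 139 (0.96, and 0.54 with normexp) and 153 and 258 (0.59). The B3gnt7 probe, 15.3 kb away on the other strand, read 18.9 and 45.8 (1.11). Those near Rab2b, Jmy, Zfp799, Sytl3 and Jun were higher by 0.42 to 0.48, while their nearest gene probes differed by -0.31 to 0.21. With normexp they were 0.15 (Rab2b), 0.19 (Zfp799), 0.24 (Sytl3), 0.25 (Jun) and 0.37 (Jmy). Near Sytl3 and Rab2b, other probes of the locus did not share the step: the next probe of the Sytl3-side locus, 60 bases away, read 3205 and 3380 (-0.09), and a brighter Rab2b-side one read 160 and 172 (-0.07). Near Jmy the next probe of the locus, 60 bases on, read 225 and 284 (0.17), and another measured one 34.9 and 38.5 (-0.02). The other members of the Zfp799-side locus were not above background on either array. Among loci with 3 or more measured probes of 1 sign, a locus beside Tgif1, a homeobox repressor of TGF-beta signalling, had a mean of 0.52 (SD 0.15) and that beside Prrg4 0.44 (SD 0.16). On the low side followed loci beside Gm14391 at -0.76 (SD 0.31) and Rnf14, a ubiquitin ligase gene, at -0.55 (SD 0.38). All 4 rest on 3 probes, with mean levels between -3.24 and -1.38. The Mcl1-side locus had the lowest mean, -1.20 (SD 1.04), which includes the marked spot.

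Probes of 1 locus were set beside members at large. Of 362 loci with 3 or more measured members, the median SD within a locus was 0.17, against 0.33 over all measured members. It was 0.22 in the dimmer loci and 0.13 in the brighter. The measures are unlike, since a median of SDs over few probes can lie below a pooled SD even without agreement within loci. These loci were also brighter, with a median level of -1.85 against -2.22, and the pooled SD includes marked spots. All probes had 1 sign in 149 loci, 103 below 0 and 46 above, where 61.9% of all measured members were below 0. As means, 3 loci were at least 2-fold lower and none higher.

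Differences of members were compared with those of the nearest gene probe by strand and distance. Across 25 overlapping pairs Pearson's r was 0.82, with a median gap in difference of 0.07, but 0.57 without the pair at Ifi207 (24 pairs). At 1 bp to 5 kb it was 0.32 across 475 pairs with 158 gene probes, and 0.29 with 1 value per locus (215 pairs). Without members at Ifi207 it was 0.25, and without marked spots 0.35. At 5 to 10 kb it was 0.29 across 323 pairs but 0.09 without the members beside Dgki, so it rests on them, and at 10 to 20 kb it was -0.04 across 426 pairs. On the opposite strand it was 0.05 across 244 pairs at 1 bp to 5 kb. The 8 overlapping opposite-strand pairs, on 7 gene probes, had an r of 0.74, and 0.55 without the pair at Dnajc15. All 8 of these members lay below their gene probe in difference, with a median gap of 0.30. Pairs share both arrays and often a gene probe, so these values are descriptions without a test.

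**Figure D4:**
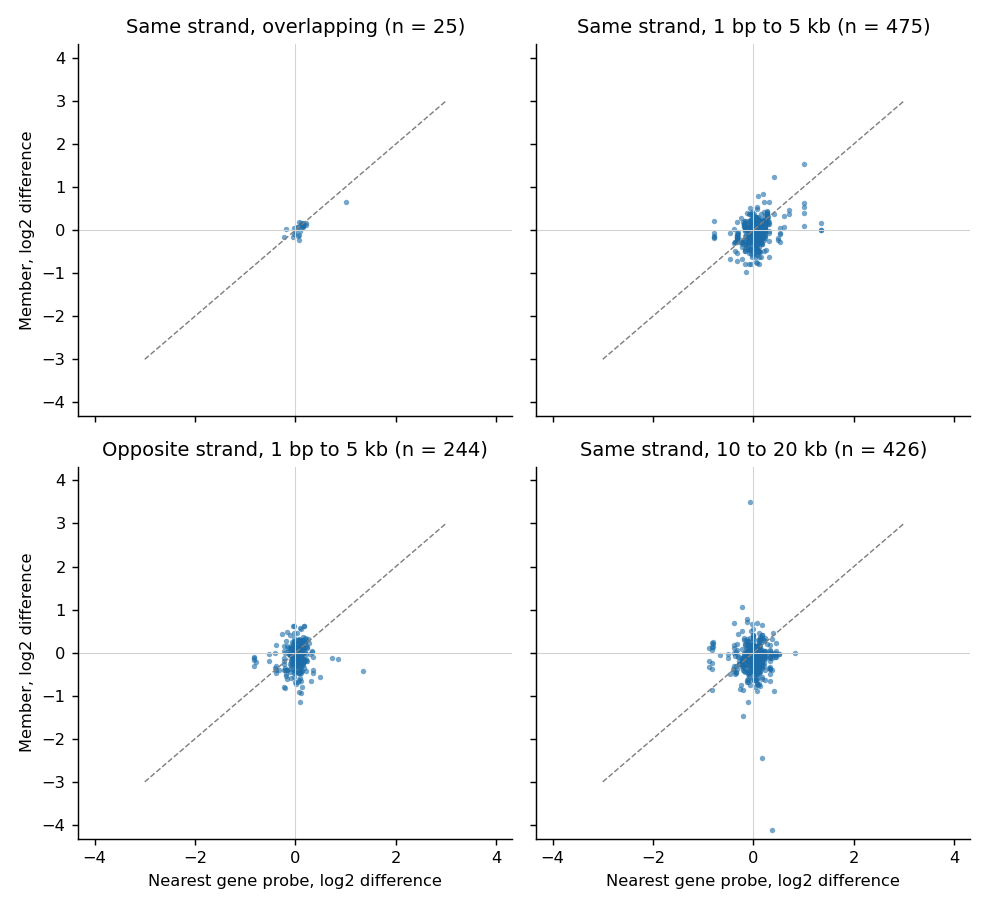
log2 difference of each measured member against that of its nearest gene probe, in 4 classes of strand and distance, with the dashed line at equal differences and n the number of pairs. Points follow the line among 25 overlapping pairs (r 0.82, and 0.57 without the pair farthest out, at Ifi207), loosely at 1 bp to 5 kb on the same strand (r 0.32), and not at 1 bp to 5 kb on the opposite strand (r 0.05) or at 10 to 20 kb (r -0.04). The 8 overlapping opposite-strand pairs (r 0.74) are not drawn.

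The brightest members hardly differed between the arrays. The brightest of all (chr3:87772547-87772606, 11.7 kb upstream of the probe of Nes, which encodes the intermediate filament nestin) read 55969 and 67042 (0.10), while Nes read 66.5 and 79.4. The next, near the mitochondrial ribosomal gene Mrpl36, read 52511 and 57098 (-0.04), and the member near B4galt5, a galactosyltransferase gene, 37693 and 45596 (0.11). Members near Acbd3, Rnf4 and Ppil1 read 15593 to 19803 and differed by -0.01 to -0.15, and a pair near Tenm2, whose own probe was not above background, by 0.07 and 0.28. The exception was the member near Safb2, a nuclear matrix RNA-binding protein gene (chr17:56691787-56691846), at 20877 and 15378 (-0.61). The Safb2 probe, on the same strand 10.5 kb away, read 8495 and 10025. Several other members lie near Safb2. Another on this strand, 11.5 kb from the Safb2 probe, differed by -0.08, and values of the rest are not given here.

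Members above background on 1 array only have a bound in place of a difference, the brighter signal over the floor of the other array, where the floor is the lowest signal well above background there or the probe's own if higher. The lowest such signal was higher on the control siRNA array, at a log2 level of -4.32 against -4.67. Bounds of members on the GATA1 siRNA array only are therefore the smaller, and counts of both directions are not alike. Of 78 unmarked members on the control siRNA array only, 12 (15.4%) had a bound of at least 2-fold, beside 14.0% of all such probes. Of 289 on the GATA1 siRNA array only it was 2 (0.692%), beside 1.63%. The largest were a member near Epgn, an EGF family ligand gene, at least 5.46-fold lower (64.8 and 2.66), and one 92 bases downstream of the probe of Man1a2, a Golgi mannosidase gene, at least 4.28-fold lower (50.8 and 3.55). The Man1a2 probe itself differed by 0.05. The third was near Zfp882, at least 2.93-fold lower. On the other side stood members near Zfp442, at least 4.24-fold higher (14.8 and 72), Hnrnpa3, at least 2.60-fold, and Pcyt1b, at least 1.92-fold.

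Gene groups of the neighbours were described from lists. No gene of 37 mast cell genes or of 49 cytokine, chemokine and receptor genes was the nearest gene of a member. Named gene probes carry 20809 RefSeq accessions in all, and 833 genes were the nearest gene of a member. At about that share few genes of a list would be, though the haematopoietic, homeobox and cell death lists below held more. The share sets genes beside accessions and no count was tested, so counts per list were not read as results about these genes. Beside 8 of 63 haematopoietic transcription factors (Egr3, Fosb, Ikzf2, Jun, Junb, Klf2, Mecom and Nr4a1) there were 55 members, of which 25 were measured. Their median was -0.20, where all measured members had -0.07 and all measured probes 0.01. Of these 25, 19 were below 0, beside 61.9% of all measured members. Only 1 passed 2-fold, at a marked spot upstream of the nuclear receptor gene Nr4a1 (81.3 and 189, 1.05). The next largest was near Mecom, a zinc finger regulator of stem cells, at 70.3 and 45.2 (-0.80). Beside 15 of 95 homeobox and developmental factors 27 of 92 members were measured, with a median of -0.17, 20 below 0 and only the marked Emx2 member past 2-fold. The one near Pou3f1, a POU factor, read 29.2 and 18.8 (-0.80). Beside 5 of 24 cell death and p53 genes 16 of 37 were measured, with a median of 0.09 and 5 below 0, the 2 past 2-fold being those upstream of Mcl1. Beside 2 of 35 RNA processing genes, Srsf1 and Srsf3, 11 of 16 were measured, with a median of -0.09, the lowest near Srsf1 at 23.8 and 19.8 (-0.43) and 87.8 and 74 (-0.41). Of 35 neutrophil, macrophage, dendritic and eosinophil genes only Fcgr1, the high-affinity IgG receptor, had members, with 5 of 10 measured and a median of -0.30. The lowest read 26.2 and 21.1 (-0.48) and, at a marked spot, 19.5 and 16.5 (-0.41), beside an Fcgr1 probe at -0.39.

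At the limit of the distance rule, the measured members just inside, at 19967 and 19976 bases, read 34.4 and 66.7 (0.79) and 46.5 and 58.8 (0.17). The locus probes just outside, at 20001 and 20003 bases, read 88.8 and 91.1 (-0.13) and 2802 and 3473 (0.14).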

How the data were processed

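Total RNA on 2 arrays, 1 per siRNA, was labelled with Cy3 from 100 ng of RNA, per the labels' protocols. The authors' deposited files hold intensity values from Agilent Feature Extraction 10.7.3.1, per the file headers: background-subtracted, detrended processed signals with mm9 probe positions, both arrays lying on 1 slide. Their deposited normalized table has intensity ratios equal to each processed signal over its array's median, found from the values. How it was made is not given in the sources used here.

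Control and outlier spots were left out, repeated probes averaged on the log2 scale, and signals divided by the array's 75th percentile (303.2 and 340.0). With 1 array per group no test was possible, and a 2-fold rule was used. The number of arrays limits the precision. Gene symbols came from RefSeq (GRCm38.p6, names only; 26073 of 26526 probes matched). A spot was marked where at least 2 spots within 25 scanner position units differed 4-fold or more and were above background on either array (444 such spots, 1441 marked). This definition was chosen after the values were seen, from several tried, because its number of differing spots matched an earlier analysis of these files.

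Members named singly are the 10 highest, 10 lowest and 10 brightest unmarked ones, ranked in difference above the 25th percentile of level, the 5 highest and lowest loci of 1 sign, 3 bounds each way and 2 members per list. The member near Fis1, the pairs with Micos10, 4930562C15Rik, Shisa8, 2410124H12Rik, A730089K16Rik and 9130206I24Rik, and the other probes around named members were chosen after their values were seen. Members and lists were chosen with earlier results of these data known. The counting, level-matching and neighbour steps were tested on simulated data. Tools were Python 3.11.15, pandas 2.3.3, scipy 1.17.1 and, for normexp and loess, limma 3.58.1 in R 4.3.3.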

Additional observations from a re-analysis of the deposited data

How the results depend on the processing

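With 1 array per group, an alternative shows only how the processing moves these 2 arrays' values. No paired analysis was possible because each group has a single array. Of 174 alternative values for the 11 main results, 122 stayed close to the main value and 52 moved, and of 367 for single members 9 moved, all with normexp. None of those past 2-fold changed sign, while 3 members with a main difference of at most 0.07 did so in 4 values. Members past 2-fold, 5 higher and 23 lower in the main setting, were 1 and 7 with normexp, 203 and 363 with no filter on dim probes, 2 and 12 among brighter probes, 2 and 10 within 10 kb, 2 and 1 within 5 kb, 1 and 10 counted as loci, 29 and 136 at 1.5-fold, and 2 and 7 at 3-fold. The higher count was 1 without marked spots and 9 within 50 kb, and the lower count 15 with the nearest gene probe taken on the same strand. Loci past 2-fold were 0 with normexp, within 5 kb and at 3-fold, 1 with the authors' table, 28 with no filter and 7 at 1.5-fold. The median level was -1.55 with normexp, -2.07 scaled to the median of measured probes, 1.596 in the authors' table, -4.96 with no filter, -0.85 among brighter probes, -2.16 with same-strand neighbours and -2.35 by locus. The share measured was 100% by construction with no filter, 21.3% among brighter probes, 45.1% with same-strand neighbours and 65.3% by locus. The median difference was -0.011 with the authors' table and -0.22 with no filter, and that of level-matched genes 0.061 and -0.16. Level-matched genes past 2-fold in either direction were 0.24% with normexp and 10.5% with no filter, and 8.83% and 0.41% passed 1.5-fold and 3-fold. The same-strand correlation under 5 kb was 0.13 with no filter and 0.41 among brighter probes. The opposite-strand one was -0.011 and -0.059 there, -0.069 by distance from the locus span and -0.0036 by locus. Spans with 1 strand measured were 0% by construction with no filter and 46.0% among brighter probes. Other causes were not tested. Leaving out members beside Dgki (19 lower) or at Ifi207 (same-strand correlation 0.25 under 5 kb, 0.57 where overlapping) was chosen after seeing the data. Signal over background limits the dimmer members most.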
